A study of Macaca mulatta with 19 samples.

Results

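Luteinized granulosa cells of the periovulatory follicle were compared between follicles that held a degenerating oocyte and follicles that held an oocyte at metaphase I (MI), in rhesus macaques that all ate a Western-style diet (WSD). Libraries were chosen by diet and by the oocyte class given for each sample, which took 10 of the 19 libraries of the series, 5 with a degenerating and 5 with an MI oocyte. The series crossed 2 diets with 2 implants, and each library carries its own animal number in the labels.

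In the WSD+C libraries the animal carried an implant with cholesterol, the control, and in the WSD+T libraries one with testosterone at 4 to 5 fold the control level. The degenerating class holds 2 WSD+C and 3 WSD+T libraries and the MI class 3 WSD+C and 2 WSD+T libraries, so that implant was kept as a term. Treatment began near menarche, and the single naturally selected follicle was aspirated after about 3.5 years, in a controlled ovulation cycle. All cells were collected as luteinized granulosa cells, with no sort named, and the age of each animal is not given in the labels. Libraries are named by oocyte class, group and number, as in Degenerating WSD+T 3, and the numbers pair nothing across groups.

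A macaque follicle is a closed epithelium of granulosa cells around 1 oocyte, with its blood vessels outside the basement membrane until ovulation. The ovulatory gonadotropin surge ends the meiotic arrest of the oocyte, which passes through metaphase I on its way to metaphase II, and it turns granulosa cells from estrogen to progesterone synthesis. Granulosa cells feed the oocyte with pyruvate and amino acids through gap junctions, and they also supply it with cholesterol. The oocyte in turn signals to them with GDF9 and BMP15.

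Granulosa markers were abundant in all 10 libraries but below the MI range in 4 of the 5 with degenerating oocytes, and the sum of general leukocyte markers was higher in each of those 5. The summed level of 11 granulosa markers (INHA, STAR, CYP11A1, GJA1 and others) was 15900 to 18230 CPM (a gene's count relative to the scaled total of its library) with MI oocytes and 12520 to 18000 CPM in 4 of the 5 libraries with degenerating oocytes. It was 4198 CPM in Degenerating WSD+C 1. Summed levels of 11 leukocyte markers, genes of white blood cells in general, were 8.18, 11.1, 24.4, 35.5 and 29.1 CPM in the MI libraries (WSD+C 1, 2 and 3, then WSD+T 1 and 2). In the degenerating libraries (WSD+C 1 and 2, then WSD+T 1, 2 and 3) they were 2271, 61.3, 230.1, 41.9 and 2279 CPM. The classes did not overlap, and the class medians were higher with degenerating oocytes for 11 of the 11 markers. Of these 7 did not overlap between classes, against 2.54% of all tested genes in that direction. Of the 11 markers 3 reached 1 CPM in every MI library and 10 in every degenerating one. The filter for tested genes can admit a gene through the degenerating libraries alone, so that the count without overlap is a description. The same order of libraries holds for every list of 5 values.

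The sums of the other marker lists overlapped between classes. The sum of 14 macrophage markers was 11.8 to 36.4 CPM with MI and 28.6 to 3475 CPM with degenerating oocytes, that of 13 lymphocyte markers 0.343 to 4.75 and 3.34 to 542 CPM, and that of 11 neutrophil markers 0.221 to 13.8 and 10.7 to 158.8 CPM. All 38 markers of these 3 lists had a higher median with degenerating oocytes. Markers of red blood cells summed to 12.5 to 1894 CPM with MI and 708.3 to 121000 CPM with degenerating oocytes (9 of 10 medians higher), and globins took 14.8% of the gene counts of Degenerating WSD+C 1. Smooth muscle markers were at 13.3 to 181.6 and 20.5 to 2516 CPM (8 of 8 medians higher), endothelium markers at 6.11 to 11.4 and 4.59 to 134.4 CPM, and surface epithelium markers at 19.1 to 49.7 and 28.5 to 378.6 CPM. Theca and stroma markers overlapped closely, at 146.5 to 230.3 and 109.7 to 323.4 CPM. Markers of platelets (343.6 to 483.5 against 166.2 to 530 CPM) and oocytes (2.77 to 22.3 against 2.94 to 254.5 CPM, the last in Degenerating WSD+C 1) overlapped too. At 0 in every MI library were the neutrophil marker ELANE, the stromal marker LUM and the endothelial markers EMCN and CLDN5, and at 0 in every degenerating library were CLDN5 and the alpha globin HBA1, whose reads may be shared with near-identical copies. No marker of the granulosa, leukocyte, macrophage or lymphocyte lists was at 0 throughout a class. In such bulk samples a larger share of cells of a type cannot be told apart from more RNA per cell.

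**Figure D1:**
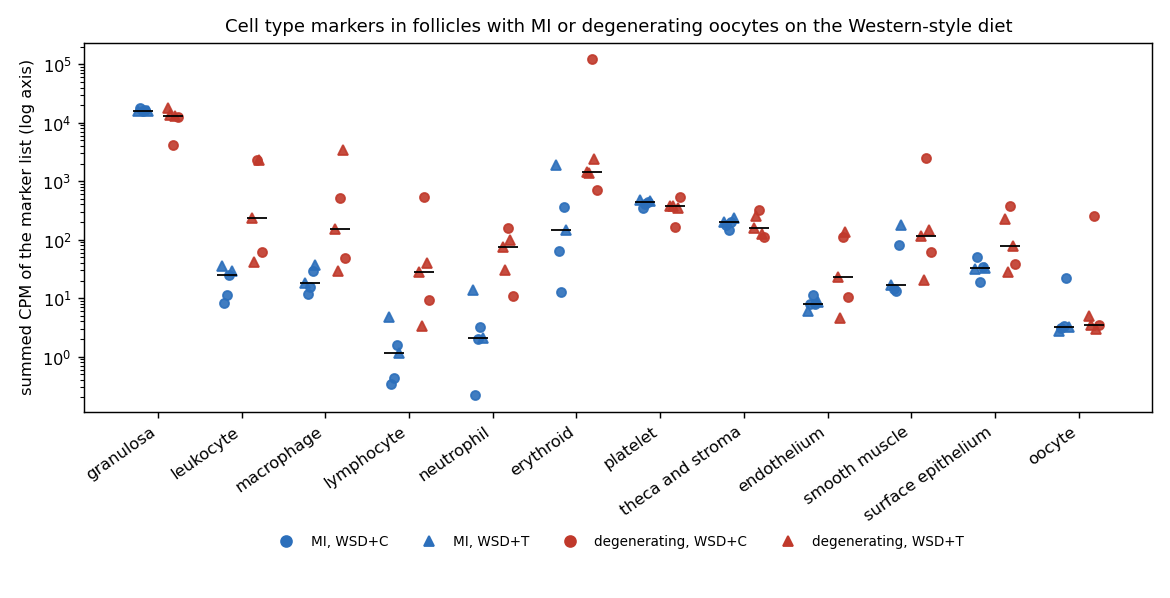
Summed TMM-scaled CPM of 12 lists of cell type markers (log axis) in the 10 libraries, circles for WSD+C and triangles for WSD+T, blue for MI and red for degenerating oocytes, with a bar at the class median. The leukocyte sums of the classes do not overlap (highest MI 35.5 CPM, lowest degenerating 41.9 CPM), and 1 red circle is low for granulosa and high for erythroid, smooth muscle and oocyte markers.

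Libraries with MI oocytes were alike and those with degenerating oocytes were not. Over all tested genes the log2(CPM + 1) of 2 MI libraries correlated at 0.972 to 0.991 (10 pairs), and those of 2 degenerating libraries at 0.807 to 0.9751 (10 pairs), which overlaps the 0.778 to 0.983 between classes (25 pairs). On the first principal component, which held 53.4% of the variance, MI libraries lay between -44.8 and -29.5. Degenerating WSD+T 2 lay within that range at -30.6 and WSD+C 2 near it at -18.3, while WSD+T 1 was at 25.9, WSD+T 3 at 65.7 and WSD+C 1 at 131. Degenerating WSD+C 1 and WSD+T 3 thus stand apart, and results are given with and without both where it matters. Gene counts per library ranged from 35338126 to 56385679, and the highest 2 totals of reads (83542975 and 85459124, against 58391784 to 67871397 in the other 8) were in Degenerating WSD+T 1 and 2. The share of reads in genes was 62.5 ± 3.88% with degenerating and 66.5 ± 1.18% with MI oocytes (SD, n = 5 each; two-sided exact permutation test p = 0.0159, adjusted over 4 measures 0.0423), and mitochondrially encoded genes took 6.94 ± 2.25% and 3.83 ± 2.31% of gene counts (exact permutation p = 0.0952, adjusted 0.0952). The 50 most abundant genes held 23.5 ± 5.33% and 18.1 ± 1.54% (exact permutation p = 0.0317, adjusted 0.0423), and 664.2 more genes reached 1 CPM in degenerating libraries on average (exact permutation p = 0.0317, adjusted 0.0423). All 3 of these adjusted calls were lost without both libraries (adjusted p of 0.0952, 0.0952 and 0.179), and the part of these measures in the gene results was not tested.

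**Figure D2:**
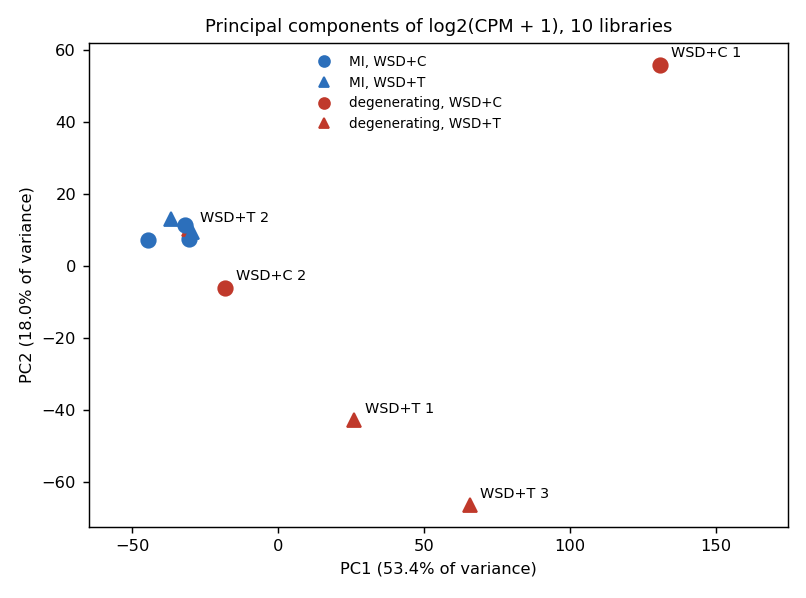
First and second principal component of log2(CPM + 1) over all tested genes, 1 point per library, with degenerating libraries labelled by group and number. The 5 MI libraries (blue) lie together between -44.8 and -29.5 on the first component, and the 5 degenerating ones (red) spread from -30.6 to 131.

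Across all genes the difference between classes did not pass the adjusted threshold for any gene by edgeR, although many genes had a small unadjusted p. Of 13929 genes tested by edgeR's quasi-likelihood test with the implant as a term, 0 had a Benjamini-Hochberg adjusted p under 0.05 (0.0%; smallest 0.148), and 2741 (19.7%) had an unadjusted p under 0.05, of which 1808 (13.0%) were higher and 933 (6.7%) lower with degenerating oocytes. The 5 levels of one class lay wholly above or below the 5 of the other for 599 genes (4.3%), 354 of them higher (2.54%) and 245 lower (1.76%). DESeq2 on the same counts called 1291 genes (9.27%; 999 higher, 7.17%, and 292 lower, 2.1%), and 291 (2.05%) without Degenerating WSD+C 1 and WSD+T 3. Limma called 0, with 2329 genes at an unadjusted p under 0.05. Without both libraries edgeR called 0 and had 1563 genes (11.0%) at an unadjusted p under 0.05, and 1113 of the 2741 kept their direction and such a p. In those 8 libraries the classes did not overlap for 583 higher (4.19%) and 450 lower (3.23%) genes. With the leukocyte marker score as a further term 390 genes (2.8%) had an unadjusted p under 0.05, and 159 of the 2741 were among them with the same direction. Fitted log2 fold changes are followed by their value without both libraries (without both) and with the leukocyte marker score as a term (with the term). Since the leukocyte marker sums of the classes did not overlap, oocyte class and leukocyte marker level cannot be told apart beyond this in 10 libraries.

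Genes of smallest p that lay higher beside degenerating oocytes included sensors and regulators of immune signalling. None passed the threshold by edgeR: the first 10 in each direction all had an adjusted p of 0.148. MEFV (ENSMMUG00000017969), which encodes pyrin, an innate immune sensor, was at 8.01, 11.2, 7.96, 7.76 and 8.32 CPM with MI and at 26.2, 17.1, 19.9, 15.5 and 19.7 CPM with degenerating oocytes. Every degenerating library lay above every MI library, with means of 19.7 ± 4.08 and 8.64 ± 1.42 CPM (SD, n = 5) and a log2 fold change of 1.28 (SE 0.197, 95% CI 0.84 to 1.72, 1.05 without both, 0.92 with the term). GPR65, a proton-sensing receptor of lymphoid and myeloid cells, was at 0.221, 0.108, 0.325, 0.423 and 0.359 CPM with MI and 10.6, 1.61, 3.28, 1.99 and 8.76 CPM with degenerating oocytes. GPR65 had a log2 fold change of 4.25 (95% CI 2.62 to 5.88, 2.80 without both, 1.87 with the term). It was highest in the 2 libraries that stand apart. Genes of smallest p had to reach a mean log2 CPM of 0 over the 10 libraries. GPR65, and CLDN4 and SAMSN1 below, stayed under 1 CPM in every MI library. They thus passed only through the degenerating libraries, so that their lack of overlap is a description. ZNFX1, an interferon-inducible helicase that binds viral RNA, was at 14.8, 16.1, 16.4, 14.9 and 15 CPM with MI and 31.9, 23, 21.5, 26.5 and 31.6 CPM with degenerating oocytes (log2 fold change 0.87, 95% CI 0.50 to 1.23, 0.63 without both, 0.53 with the term), again without overlap. CBLB, a ubiquitin ligase that restrains receptor signalling, was at 43.9, 25.8, 31.2, 26.2 and 29.2 CPM with MI and 83.8, 57, 68.3, 43.1 and 71.5 CPM with degenerating oocytes. CBLB had a log2 fold change of 1.16 (95% CI 0.66 to 1.66, 0.91 without both, 0.70 with the term). Its highest MI level, in MI WSD+C 1, was just above its lowest degenerating level.

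The remaining higher genes of smallest p follow, and bulk RNA does not show which cells expressed these genes or those above. COX20, an assembly factor of cytochrome c oxidase, was at 24.9, 16.1, 22.8, 19 and 25.5 CPM with MI and 38.8, 40.6, 33.9, 36 and 38.6 CPM with degenerating oocytes. COX20 had a log2 fold change of 0.85 (95% CI 0.48 to 1.21, 0.78 without both, 0.71 with the term). Its degenerating levels spanned a narrow range and overlapped no MI level. CLDN4, a tight junction protein of epithelia, was low in all libraries, at 0.392, 0.351, 0.281, 0.282 and 0.154 CPM with MI and 0.908, 1.43, 3.55, 2.11 and 1.67 CPM with degenerating oocytes. CLDN4 had a log2 fold change of 2.64 (95% CI 1.58 to 3.69, 3.02 without both, 3.25 with the term). Here Degenerating WSD+C 1 was the lowest of its class. The others were YPEL3 (1.15, 0.93 without both, 0.78 with the term), of the yippee-like family, the adaptor SAMSN1 (2.89, 2.11 without both, 1.35 with the term), the GABA-B receptor subunit GABBR1 (0.79, 0.84 without both, 0.75 with the term) and FAM100A (1.02, 0.88 without both, 0.67 with the term), all without overlap between classes.

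The 6 higher genes with the widest gap between classes included receptors of white blood cells. They had to reach a mean log2 CPM of 1 over all 10 libraries. A gene near 0 in MI libraries passes this only through the degenerating ones. The choice thus favours such genes and fixes their lack of overlap, so that what follows is a description. TLR4, the endotoxin receptor of myeloid cells, was at 0, 0.135, 0.541, 0.705 and 0.462 CPM with MI and 17.1, 1.71, 7.95, 2.03 and 81.6 CPM with degenerating oocytes. TLR4 had a log2 fold change of 5.60 (95% CI 2.61 to 8.58, 3.01 without both, 1.04 with the term). The levels in Degenerating WSD+C 2 and WSD+T 2 were the nearest to the MI levels, which did not reach them. FCGR2B, an inhibitory receptor for immunoglobulin G whose reads may be shared with close paralogs, was at 0.122, 0.189, 1.3, 2.19 and 0.924 CPM with MI and 55, 4.5, 17.5, 4.54 and 206 CPM with degenerating oocytes. FCGR2B had a log2 fold change of 5.76 (95% CI 2.80 to 8.71, 2.93 without both, 0.90 with the term). TAGAP (5.98, 3.44 without both, 1.48 with the term), ARHGAP9 (5.58, 2.82 without both, 0.71 with the term) and CIMAP1B (5.67, 3.42 without both, 2.39 with the term) did not overlap between classes either. All 5 of these log2 fold changes were smaller in both alternatives, and that of TAGAP was 3.57 without Degenerating WSD+C 1 alone.

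Of the genes that lay lower beside degenerating oocytes, HEG1 (ENSMMUG00000032005), a transmembrane protein of cell junctions, was at 132, 232, 291, 139 and 154 CPM with MI and 58.7, 55.6, 46, 72.1 and 62.7 CPM with degenerating oocytes. The MI libraries all lay above the degenerating ones, with means of 189.7 ± 69.2 and 59 ± 9.57 CPM (SD, n = 5) and a log2 fold change of -1.56 (SE 0.254, 95% CI -2.14 to -0.99, -1.58 without both, -1.63 with the term). PTCD2, a mitochondrial RNA-binding protein, was at 39.8, 38.1, 43.5, 40.2 and 40.3 CPM with MI and 24, 22.6, 26.3, 26.4 and 28.8 CPM with degenerating oocytes. PTCD2 had a log2 fold change of -0.63 (95% CI -0.89 to -0.38, -0.70 without both, -0.77 with the term). Both classes were tight and apart, and the level in Degenerating WSD+C 1 lay within the range of the others of its class. AGPAT5, an acyltransferase of phospholipid synthesis, was at 48.4, 58.4, 56.9, 56.5 and 63.1 CPM with MI and 30.4, 31.3, 35.8, 42.8 and 33.5 CPM with degenerating oocytes. AGPAT5 had a log2 fold change of -0.71 (95% CI -0.97 to -0.44, -0.69 without both, -0.64 with the term). SHMT2, which makes one-carbon units from serine in mitochondria, was at 143, 173, 227, 232 and 225 CPM with MI and 55.6, 109, 77.2, 140.1 and 88.1 CPM with degenerating oocytes. SHMT2 had a log2 fold change of -1.12 (95% CI -1.65 to -0.59, -0.92 without both, -0.81 with the term). Neither gene overlapped between classes.

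FADS2, the desaturase that begins the synthesis of long polyunsaturated fatty acids, had one of the widest gaps on the lower side. It was at 435, 356, 399, 456 and 476 CPM with MI and 25.8, 156, 153, 237 and 248 CPM with degenerating oocytes. FADS2 had a log2 fold change of -1.61 (95% CI -2.62 to -0.60, -1.29 without both, -1.05 with the term; edgeR adjusted p = 0.151). Its lowest level was in Degenerating WSD+C 1. E2F8, a repressor of the cell cycle E2F family, was at 13.7, 15.8, 14.2, 17.9 and 16.4 CPM with MI and 2.04, 9.94, 0.212, 5.63 and 1.24 CPM with degenerating oocytes (log2 fold change -2.05, 95% CI -3.79 to -0.32, -1.60 without both, -1.16 with the term; edgeR adjusted p = 0.206), close together in MI libraries and scattered across degenerating ones. FAM124A was at 49.1, 104, 121, 136 and 133 CPM with MI and 8.17, 35.7, 22, 40.6 and 39.6 CPM with degenerating oocytes, a log2 fold change of -2.0 (-1.77 without both, -1.67 with the term). In protein synthesis, ABCE1, which recycles ribosomes, had a log2 fold change of -0.51 (95% CI -0.73 to -0.28, -0.47 without both, -0.43 with the term), and DCAF13, which acts in ribosomal RNA processing, -0.80 (95% CI -1.16 to -0.44, -0.90 without both, -0.97 with the term). The pyrophosphatase PPA1 was at -0.71 (95% CI -1.0 to -0.42, -0.63 without both, -0.54 with the term), the phospholipid scramblase PLSCR1 at -1.55 (95% CI -2.20 to -0.90, -1.39 without both, -1.44 with the term), ANKS1B at -1.54 (95% CI -2.19 to -0.89, -1.79 without both, -2.04 with the term) and RNFT2 at -1.49 (95% CI -2.46 to -0.52, -1.38 without both, -1.10 with the term).

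Over these 29 genes of smallest p or widest gap (15 higher, 14 lower), the sign of the log2 fold change was the same in WSD+C and in WSD+T and in each fit that left out 1 library. The choice of genes fixes the sign in the 10 libraries, so that this is a description. The same choice bears on the other counts: an unadjusted p under 0.05 was found for 28 of them without both (11.0% of all genes) and for 21 with the term (11 higher, 10 lower, against 2.8% of all genes), and DESeq2 called 28 (9.27% of all genes), all but E2F8 (adjusted p = 0.0575). Nothing is read from these counts.

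**Figure D3:**
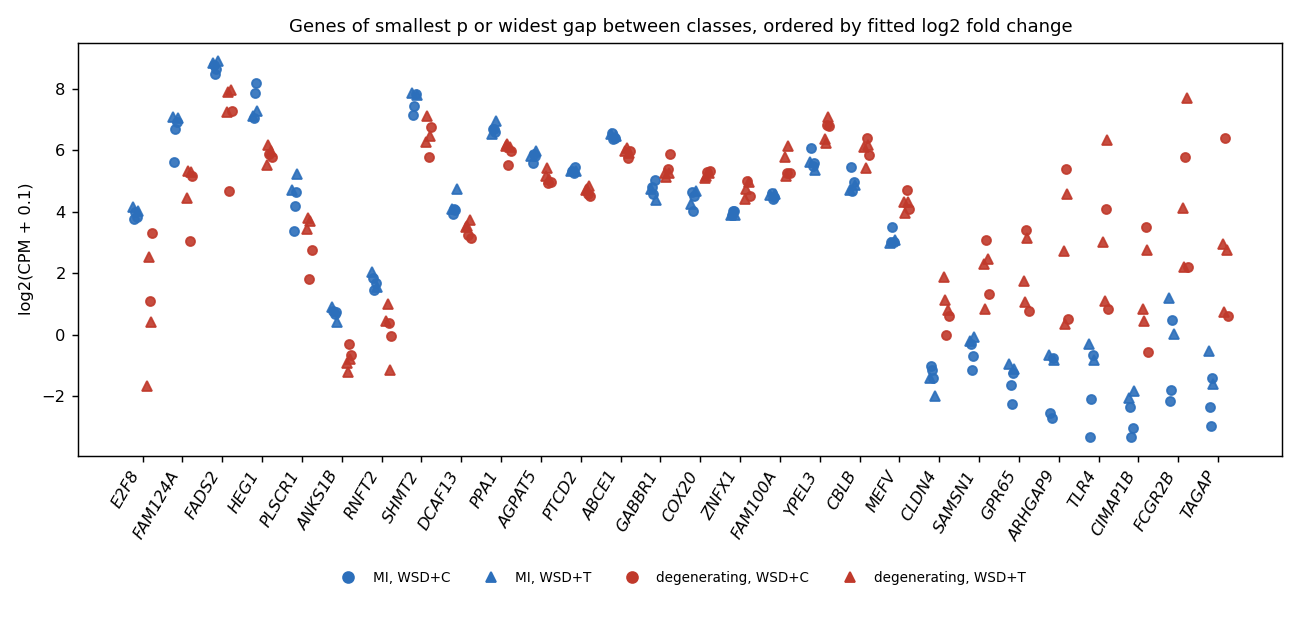
Level of the named genes of smallest p or widest gap, as log2(CPM + 0.1), in the 10 libraries, ordered by fitted log2 fold change from E2F8 to TAGAP, with blue for MI and red for degenerating oocytes, circles for WSD+C and triangles for WSD+T. The classes overlap only for CBLB and PLSCR1 among the genes shown, and the 5 genes at the right reach at most 2.19 CPM in any MI library.

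Among genes of granulosa function, aromatase and follistatin had lower levels beside degenerating oocytes, none past the adjusted threshold of edgeR. CYP19A1, the aromatase that makes estrogens, was at 1197, 418, 755, 737 and 472 CPM with MI and 60.1, 289, 144, 609 and 110.5 CPM with degenerating oocytes, with means of 716 ± 309 and 243 ± 222 CPM (SD, n = 5). Only Degenerating WSD+T 2, at 609 CPM, lay within the MI range. The log2 fold change was -1.61 (95% CI -3.07 to -0.14, -1.0 without both, -0.33 with the term; edgeR adjusted p = 0.227). FST, follistatin, which binds activins, was at 847, 613, 908, 987 and 815 CPM with MI and 147, 468, 358, 575 and 481 CPM with degenerating oocytes (log2 fold change -1.12, 95% CI -1.84 to -0.40, -0.86 without both, -0.69 with the term; adjusted p = 0.152 by edgeR and 0.00997 by DESeq2), with no overlap. INHBB, the beta B subunit of activins and inhibins, had a positive log2 fold change, at 70.5, 73.8, 64.5, 46.2 and 37.3 CPM with MI and 99.1, 64.3, 182, 108 and 102 CPM with degenerating oocytes (log2 fold change 0.99, 95% CI 0.26 to 1.73, 1.08 without both, 1.11 with the term), with overlap in WSD+C only. INHA, the inhibin alpha subunit, was at 7228, 6294, 5403, 6704 and 4839 CPM with MI and 217, 4823, 5027, 5360.0 and 4055 CPM with degenerating oocytes. INHA had a log2 fold change of -0.78 (95% CI -2.34 to 0.78, -0.25 without both, 0.33 with the term), so that its sign turned with the term.

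STAR, which delivers cholesterol to the inner mitochondrial membrane, was at 2505, 4413, 4405, 2349 and 5049 CPM with MI and 211, 2094, 4602, 2690.0 and 2425 CPM with degenerating oocytes. STAR had a log2 fold change of -0.94 (95% CI -2.44 to 0.57, -0.35 without both, -0.11 with the term). CYP11A1, the side-chain cleavage enzyme, had a log2 fold change of -0.48 (95% CI -2.20 to 1.24, -0.11 without both, -0.27 with the term), and HSD3B2, the last step to progesterone, whose reads may be shared with a close paralog, -0.33 (95% CI -3.10 to 2.45, 0.24 without both, 0.04 with the term). Without Degenerating WSD+C 1 alone the values of STAR, CYP11A1 and HSD3B2 were -0.43, 0.07 and 0.39, so that the last pair turned sign. The classes overlapped for all 3 genes, and the lowest value of each gene was in Degenerating WSD+C 1. Of 14 tested steroid synthesis genes 4 had a positive log2 fold change (median -0.30, against 0.03 and 52.3% positive over all tested genes), and 1 was lower at an unadjusted p under 0.05, against 6.7% of all genes. The median was -0.01 without both, 0.08 with the term. The gonadotropin receptor LHCGR was at 46.5, 33, 21.7, 15.3 and 11.8 CPM with MI and 0.399, 13.7, 19.2, 25.6 and 1.99 CPM with degenerating oocytes. LHCGR had a log2 fold change of -1.02 (95% CI -3.41 to 1.38, -0.03 without both, 1.37 with the term). Its direction did not hold, at -0.32 without Degenerating WSD+C 1 alone and positive with the term. FSHR was at 6.76, 3.81, 4.63, 4.37 and 3.57 CPM with MI and 76.1, 6.19, 6.06, 4.14 and 4.98 CPM with degenerating oocytes. FSHR had a log2 fold change of 1.77 (95% CI 0.08 to 3.46, 0.34 without both, -0.34 with the term). Degenerating WSD+C 1 was far above the rest. Of 11 granulosa markers 2 had a positive log2 fold change (median -0.48, -0.03 without both, 0.0023 with the term).

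Genes of the ovulatory response, which the gonadotropin surge induces in granulosa cells, spanned a wider range as a list beside degenerating oocytes. This width came from Degenerating WSD+C 1 and WSD+T 3. The mean log2(CPM + 1) of the list was 6.37 to 6.62 in MI libraries and 4.17 to 7.27 in degenerating ones. The lowest was in Degenerating WSD+C 1 and the highest in WSD+T 3, and without both the degenerating range was 6.62 to 6.88. AREG, an EGF-like ligand that relays the surge to the cumulus, was at 362, 369, 243, 205 and 401 CPM with MI and 4.01, 839, 2542, 195 and 3299 CPM with degenerating oocytes. AREG had a log2 fold change of 1.57 (95% CI -1.37 to 4.50, 1.86 without both, 1.57 with the term). It was above every MI library in 3 degenerating ones and below in the other 2. PTGS2, the inducible cyclooxygenase, was at 1308, 2354, 1133, 1429 and 345 CPM with MI and 33.6, 2223, 1056, 1552 and 1522 CPM with degenerating oocytes (log2 fold change 0.08, 95% CI -1.93 to 2.08, 0.53 without both, 1.10 with the term). PGR, the progesterone receptor, was at 33.9, 16.7, 43.7, 42.4 and 18.4 CPM with MI and 5.91, 65.7, 17.3, 27.4 and 16.5 CPM with degenerating oocytes. PGR had a log2 fold change of -0.18 (95% CI -1.44 to 1.08, 0.26 without both, 0.59 with the term). The intervals of TNFAIP6 (log2 fold change -0.77, 95% CI -2.76 to 1.22, -0.57 without both, -0.12 with the term) and HAS2 (log2 fold change -0.88, 95% CI -2.78 to 1.02, -0.40 without both, 0.14 with the term), which build the cumulus matrix, included 0, as did those of AREG, PTGS2 and PGR. PTGER4, a prostaglandin E2 receptor, had levels of 0.027 to 0.353 CPM with MI and 0.704 to 30.3 CPM with degenerating oocytes (log2 fold change 5.85, 2.60 without both, 0.77 with the term, and 3.82 without Degenerating WSD+C 1 alone). Of 23 tested genes of the list 11 had a positive log2 fold change (median -0.14, 0.22 without both, 0.31 with the term), with 2 higher and 2 lower at an unadjusted p under 0.05, against 13.0% and 6.7% of all genes.

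For exchange with the oocyte, GJA1, the gap junction protein connexin 43, was at 2744, 2193, 1960.0, 1980.0 and 1963 CPM with MI and 1486, 1476, 3477, 1796 and 2309 CPM with degenerating oocytes. GJA1 had a log2 fold change of -0.09 (95% CI -0.82 to 0.65, 0.003 without both, 0.0023 with the term). BMPR2, the type II receptor for GDF9 and BMP15, was at 144, 147, 152, 153 and 154 CPM with MI and 117, 113, 199, 138 and 90.2 CPM with degenerating oocytes (log2 fold change -0.19, 95% CI -0.65 to 0.28, -0.07 without both, -0.03 with the term), and KITLG, the ligand for the oocyte's KIT receptor, had a log2 fold change of -0.17 (95% CI -1.05 to 0.70, 0.14 without both, 0.64 with the term). Values overlapped for each and the intervals included 0, and the levels of BMPR2 were closer together with MI than with degenerating oocytes. NOTCH2, a receptor for signals between neighbouring cells, was at 422, 446, 541, 452 and 285 CPM with MI and 269.8, 267, 106, 308 and 223 CPM with degenerating oocytes (log2 fold change -0.76, 95% CI -1.40 to -0.12, -0.82 without both, -0.75 with the term; edgeR adjusted p = 0.206). Of 20 tested genes of oocyte communication 9 were positive, with a median of -0.06 (-0.06 without both, -0.03 with the term).

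**Figure D4:**
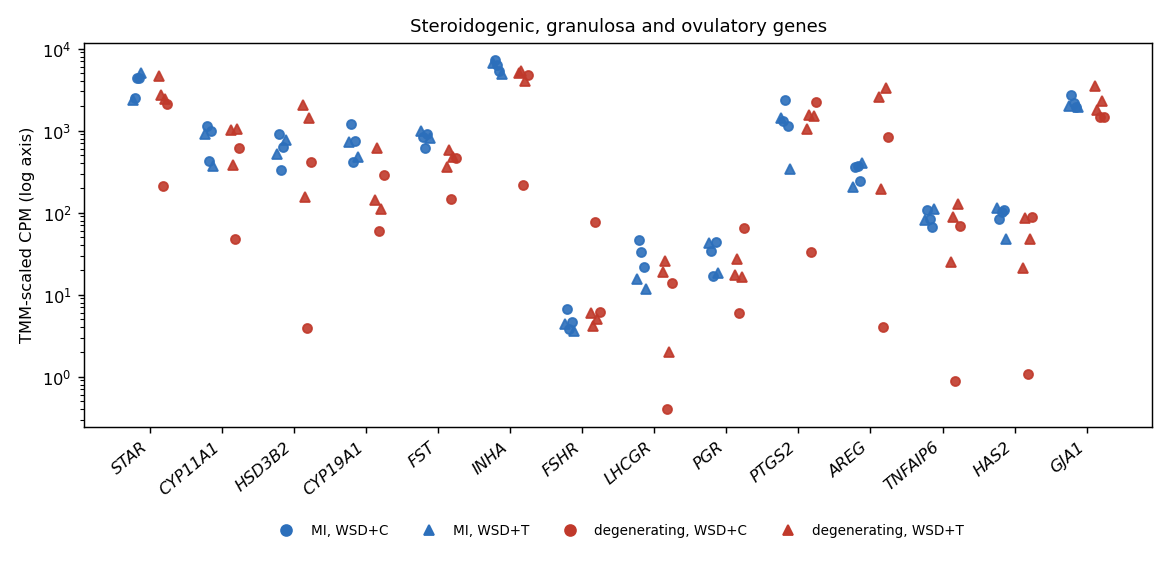
TMM-scaled CPM (log axis) of 14 steroidogenic, granulosa and ovulatory genes in the 10 libraries, blue for MI and red for degenerating oocytes, circles for WSD+C and triangles for WSD+T. FST is the only gene shown whose classes do not overlap, and 1 red circle, Degenerating WSD+C 1, is the lowest for 12 of the 14 genes and the highest for FSHR at 76.1 CPM.

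Genes of energy metabolism had mostly negative log2 fold changes. All 20 tested nuclear genes of oxidative phosphorylation had a negative log2 fold change (median -0.39, -0.19 without both, -0.09 with the term, with 1 positive without both), and 8 had an unadjusted p under 0.05, against 6.7% of all genes in that direction. NDUFA9 of complex I was at 80.2, 80.4, 71.1, 89 and 87.7 CPM with MI and 35.9, 59.5, 66.8, 71.6 and 71.8 CPM with degenerating oocytes. NDUFA9 had a log2 fold change of -0.48 (95% CI -0.79 to -0.16, -0.36 without both, -0.25 with the term). NDUFB8 of the same complex was at 66, 60.5, 56.5, 73 and 65.7 CPM with MI and 27.9, 50.5, 52, 60.7 and 55.7 CPM with degenerating oocytes. NDUFB8 had a log2 fold change of -0.44 (95% CI -0.78 to -0.09, -0.28 without both, -0.14 with the term). In both genes Degenerating WSD+C 1 was the lowest, and the highest degenerating levels lay within the MI range. Of the 20 genes 2 lay wholly below the MI levels, against 1.76% of all tested genes. These 2, named after their values were seen, were UQCRC2 of complex III (-0.41, -0.26 without both, -0.16 with the term) and ATP5F1B of the ATP synthase (-0.50, -0.32 without both, -0.23 with the term). The mean share of mitochondrially encoded genes was 6.94% with degenerating and 3.83% with MI oocytes (exact permutation p = 0.0952). Without both libraries these means were 8.36% and 3.83% (exact permutation p = 0.0536, adjusted 0.0952).

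Of 25 tested hypoxia and glycolysis genes 9 were positive (median -0.43, -0.24 without both, -0.04 with the term), with 7 lower and 2 higher at an unadjusted p under 0.05 (6.7% and 13.0% of all genes). PGK1, which makes ATP in glycolysis, was at 364, 489, 409, 483 and 528 CPM with MI and 127, 257, 237, 330.5 and 255 CPM with degenerating oocytes (log2 fold change -0.98, 95% CI -1.47 to -0.48, -0.78 without both, -0.59 with the term; adjusted p = 0.148 by edgeR and 0.000387 by DESeq2). EGLN1, the prolyl hydroxylase that marks HIF for decay, was at 83.3, 108, 102, 98.3 and 142 CPM with MI and 45.5, 75.8, 67.3, 80 and 72 CPM with degenerating oocytes. EGLN1 had a log2 fold change of -0.67 (95% CI -1.04 to -0.29, -0.55 without both, -0.48 with the term). Neither overlapped between classes. Of the 25 genes 5 lay wholly below the MI levels, against 1.76% of all tested genes. The other 3 without overlap, named after their values were seen, were the glucose transporter SLC2A1, at 28.9, 48.8, 59.9, 52.9 and 61.7 CPM with MI and 14.1, 27.2, 3.71, 18.1 and 9.64 CPM with degenerating oocytes (-1.77, -1.63 without both, -1.57 with the term), BNIP3 (-0.95, -0.68 without both, -0.48 with the term), a mitophagy receptor, and GAPDH (-0.60, -0.33 without both, -0.18 with the term), of glycolysis.

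Cholesterol synthesis and uptake genes had a negative median that rested largely on Degenerating WSD+C 1. Of 23 tested genes 1 was positive (median -0.71), with 2 lower at an unadjusted p under 0.05, against 6.7% of all genes. The median was -0.18 without both, 0.08 with the term, and -0.21 without Degenerating WSD+C 1 alone. It was -1.26 within WSD+C and 0.03 within WSD+T. CYP51A1, lanosterol demethylase, was at 426, 475, 460.1, 379.5 and 712 CPM with MI and 48.5, 226, 413, 402 and 413 CPM with degenerating oocytes (log2 fold change -1.05, 95% CI -2.06 to -0.05, -0.66 without both, -0.45 with the term), and LSS, lanosterol synthase, had a log2 fold change of -0.79 (95% CI -1.42 to -0.16, -0.46 without both, -0.32 with the term). Degenerating WSD+C 1 was below all others for CYP51A1, and the other degenerating levels overlapped with MI but for WSD+C 2. In fatty acid oxidation and lipid storage 6 of 21 were positive (median -0.18, 0.14 without both, 0.28 with the term). CPT2, the inner carnitine palmitoyltransferase, was at 66.6, 76.4, 77.2, 98.2 and 50.5 CPM with MI and 8.21, 33.9, 25.4, 63.1 and 38.6 CPM with degenerating oocytes. CPT2 had a log2 fold change of -1.28 (95% CI -2.25 to -0.32, -0.90 without both, -0.60 with the term).

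Lists of stress genes had medians of at most 0.07. Of 19 tested genes of the endoplasmic reticulum stress list 1 was positive (median -0.51, -0.24 without both, 0.05 with the term). SEL1L, which serves the disposal of misfolded proteins, was at 69.2, 102, 84.4, 80.1 and 83.8 CPM with MI and 34.8, 52.5, 38.3, 80.9 and 48.2 CPM with degenerating oocytes (log2 fold change -0.72, 95% CI -1.23 to -0.22, -0.56 without both, -0.33 with the term), and only Degenerating WSD+T 2 lay within the MI range. Among 13 heat shock genes 7 were positive (median 0.04, 0.02 without both, 0.08 with the term), with HSPA9, the mitochondrial HSP70, at a log2 fold change of -0.50 (95% CI -0.94 to -0.06, -0.33 without both, -0.25 with the term) and HSPH1 at 0.76 (95% CI 0.20 to 1.32, 0.66 without both, 0.35 with the term). The classes nearly touched for HSPA9, with a lowest MI level of 339.9 CPM and a highest degenerating level of 338.8 CPM. Of 21 oxidative stress defence genes 5 were positive (median -0.22, -0.14 without both, -0.16 with the term). GPX4, which reduces lipid peroxides, was at 69.5, 67.3, 53, 60.2 and 62.8 CPM with MI and 301, 67.6, 259, 68.2 and 208 CPM with degenerating oocytes (log2 fold change 1.61, 95% CI 0.56 to 2.66, 0.90 without both, 0.31 with the term), above the MI range in 3 degenerating libraries and within it in the other 2. Without Degenerating WSD+C 1 alone its log2 fold change was 1.04. Apoptosis genes had a median of 0.07 (14 of 25 positive, -0.12 without both, -0.18 with the term), with DIABLO, a mitochondrial death factor, at -0.66 (95% CI -1.07 to -0.26, -0.46 without both, -0.26 with the term) and BCL2, a survival factor, at 2.79 (95% CI 0.96 to 4.62, 1.83 without both, 0.57 with the term), or 1.72 without Degenerating WSD+C 1 alone. Autophagy and lysosome genes had a median of 0.04 (12 of 22 positive, 0.08 without both, 0.04 with the term), and CTSS, a protease of antigen-presenting cells, levels of 0.466 to 3.1 CPM with MI and 4.69 to 849 CPM with degenerating oocytes, with a log2 fold change of 6.34, 2.64 without both, 0.05 with the term.

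Interferon response genes had the highest median of the 21 pathway lists in the 10 libraries. Of 22 tested genes 21 were positive (median 0.89), with 11 higher at an unadjusted p under 0.05, against 13.0% of all genes. The median was 0.28 without both, -0.23 with the term, so that its sign turned there. Leukocyte marker sums were higher in the same 5 libraries (41.9 to 2279 against 8.18 to 35.5 CPM), and their part in these lists was not tested beyond that term. STAT2, which carries the interferon signal to the nucleus, was at 91.5, 88.8, 99.2, 88.9 and 87.7 CPM with MI and 109.7, 149, 113, 100.3 and 151 CPM with degenerating oocytes. STAT2 had a log2 fold change of 0.51 (95% CI 0.17 to 0.84, 0.45 without both, 0.33 with the term). GBP2, an interferon-induced GTPase, was at 1.45, 0.702, 2.42, 2.21 and 0.693 CPM with MI and 15.4, 2.64, 8.47, 3.05 and 11.7 CPM with degenerating oocytes. GBP2 had a log2 fold change of 2.56 (95% CI 1.10 to 4.03, 1.52 without both, 0.59 with the term). These 2 of the 22 did not overlap between classes, against 2.54% of all tested genes in that direction. Cytokine and NF-kB genes had a median of 0.31 (9 of 15 positive, 0.10 without both, 0.15 with the term). IL1RN, the interleukin 1 receptor antagonist, had a log2 fold change of 3.44 (95% CI 1.37 to 5.52, 1.93 without both, 0.14 with the term), which was 2.22 without Degenerating WSD+C 1 alone.

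Lists on vessels, growth factors and division had medians that moved toward or past 0 without both libraries. Angiogenesis genes had a median of 0.51 (10 of 15 positive, 0.17 without both, 0.14 with the term). PECAM1, an adhesion molecule of endothelium and leukocytes and one of the endothelium markers, was at 0.098 to 1.06 CPM with MI and 1.27 to 99.4 CPM with degenerating oocytes (log2 fold change 6.06, 2.48 without both, -0.10 with the term). TGF-beta and BMP signalling genes had a median of 0.25 (15 of 23 positive, 0.05 without both, 0.12 with the term). BMP2, a ligand of this family that granulosa cells make, was at 15.3, 4.16, 4.41, 4.07 and 6.68 CPM with MI and 19.5, 39.1, 21.5, 7.8 and 62.9 CPM with degenerating oocytes. BMP2 had a log2 fold change of 2.23 (95% CI 0.82 to 3.65, 1.84 without both, 1.52 with the term). ACVR2A, a type II activin receptor, had a log2 fold change of 0.79 (95% CI 0.14 to 1.44, 0.44 without both, 0.18 with the term) and no overlap. Cell cycle genes had a median of 0.16 (18 of 26 positive), which was -0.46 without both, -0.77 with the term, so that the sign turned in both (1 positive without both). TYMS, of thymidylate synthesis, was at 13.9, 19.8, 16.1, 19.6 and 21.9 CPM with MI and 13.1, 13.2, 10, 14.1 and 8.68 CPM with degenerating oocytes. TYMS had a log2 fold change of -0.59 (95% CI -1.04 to -0.13, -0.58 without both, -0.53 with the term). Extracellular matrix genes had a median of -0.14 (9 of 20 positive, -0.18 without both, -0.06 with the term) and matrix proteases and inhibitors one of -0.02 (9 of 18, 0.01 without both, 0.25 with the term). Preovulatory granulosa genes had a median of 0.05 (8 of 15, 0.05 without both, 0.12 with the term) and cell engulfment genes one of -0.40 (5 of 16, -0.11 without both, 0.02 with the term).

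**Figure D5:**
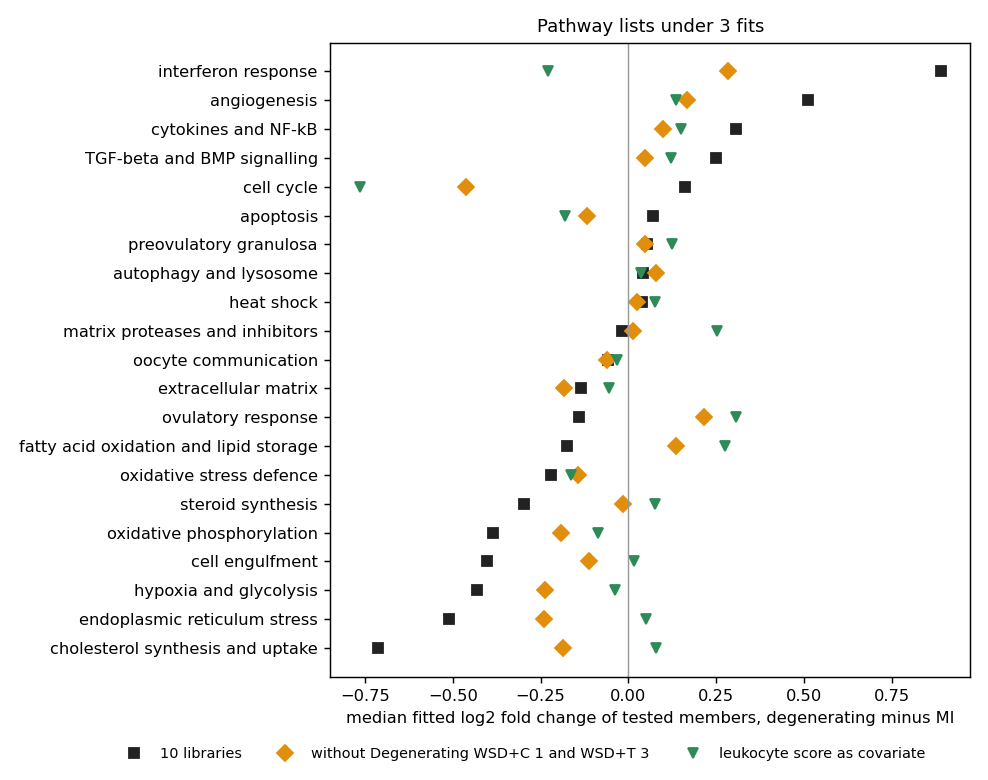
Median fitted log2 fold change of the tested members of 21 pathway lists, degenerating minus MI, in 3 fits: the 10 libraries (black squares), without Degenerating WSD+C 1 and WSD+T 3 (orange diamonds) and with the leukocyte marker score as a term (green triangles). Interferon response runs from 0.89 through 0.28 to -0.23, cholesterol synthesis and uptake from -0.71 through -0.18 to 0.08, and cell cycle from 0.16 through -0.46 to -0.77.

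The implants were compared by fitting the class difference within each. Within WSD+C edgeR called 0 genes (0.0%; smallest adjusted p = 0.269; 2104 genes, 15.1%, at an unadjusted p under 0.05), and within WSD+T also 0 (0.0%; smallest adjusted p = 0.706; 880 genes, 6.32%). The difference between implants, tested as an interaction, passed for 0 genes (0.0%; smallest adjusted p = 0.97; 484 genes, 3.47%, at an unadjusted p under 0.05). DESeq2 called 782, 98 and 4 genes in the same order and limma 0, 1 and 0. The 4, named after their values were seen, were SLC15A2, SULF2, ENSMMUG00000039667 and ENSMMUG00000041411, and the last was also limma's 1 gene within WSD+T (log2 fold change 2.83, adjusted p = 0.033). SLC15A2, a peptide transporter, was at 7.79, 6.48, 4.41, 2.23 and 2.7 CPM with MI and 3.12, 1.64, 7.28, 14.1 and 12.2 CPM with degenerating oocytes, and SULF2, an endosulfatase of heparan sulfate, at 138, 237, 167, 121 and 141 CPM with MI and 54.5, 42.9, 399, 304 and 159.7 CPM with degenerating oocytes. Degenerating levels of SLC15A2 and SULF2 were below MI within WSD+C and above MI within WSD+T (DESeq2 interaction 3.47 and 2.95 on the log2 scale, adjusted p = 0.0015 and 0.0158). INHBB differed by class by 0.33 within WSD+C and 1.65 within WSD+T, and its interaction did not pass by edgeR. With 2 or 3 libraries per cell of the design, leaving out Degenerating WSD+C 2 gave 3251 edgeR calls within WSD+C and 545 for the interaction, from the lone Degenerating WSD+C 1, which is there assumed to vary like the other groups. Leaving out Degenerating WSD+T 2 gave 9 calls within WSD+T.

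Beyond the 10, the series holds 1 other library on the Western-style diet and 1 other with a degenerating oocyte. The 1 library on the Western-style diet with a metaphase II oocyte, also under testosterone, lay nearer the MI than the degenerating median for 21 of the 29 genes of smallest p or widest gap (12 of 15 higher and 9 of 14 lower ones). The 1 library of a degenerating oocyte on chow, under testosterone, lay nearer the MI median on the Western-style diet for 19 of the 29 (10 of 15 and 9 of 14). For GPR65 the CPM over the scaled 19 libraries were 0.0775 in that library, against medians of 3.24 with degenerating and 0.327 with MI oocytes on the Western-style diet. For HEG1 it was at 333 CPM, against medians of 57.2 and 157 CPM. MEFV was at 16.1 CPM there, at 21.2 CPM in the metaphase II library and at 11.3 to 17 CPM in the 3 MI libraries on chow, against medians of 19.2 and 8.06 CPM. These are single libraries that differ in diet, oocyte class or both, and no test was made. In a fit of 18 libraries of both diets with treatment group as a term, 0 genes passed for degenerating against MI by edgeR, with 2136 at an unadjusted p under 0.05.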

How the data were processed

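RNA of luteinized granulosa cells was made into polyA-selected, non-directional libraries, per the labels' protocols. The authors deposited 1 table of whole-number read counts for each gene. Trimmomatic and STAR are named in the submitters' processing notes. Versions, counter, build and annotation: not given in the sources used here, hence no coordinates. The table holds 32386 genes, of which 21539 carried a symbol and 1383 gained one from a reference table, and 4 classes of reads outside genes, which stayed out of library sizes and tests. Reads in genes were 55.9% to 67.5% of all reads in the 10 libraries. As strand was not kept, a gene and its antisense or overlapping neighbour are not separable.

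The 10 libraries were fitted with edgeR 4.0.16 (R 4.3.3). Counts passing filterByExpr by oocyte class (at least 10, total at least 15) were scaled by TMM and tested two-sided by robust quasi-likelihood tests with Benjamini-Hochberg adjustment over 13929 genes, threshold 0.05 (biological coefficient of variation 0.511). The model held oocyte class and implant, and contrasts within implants came from a fit of 4 groups. The scripts were tested on simulated data. CPM are TMM-scaled, and fold changes are fitted log2 values. Alternatives used DESeq2 1.42.0, limma 3.58.1 (voom with quality weights), other filters and scalings, a leukocyte marker score (mean log2 CPM) as a covariate and fewer or more libraries. Reads carry no molecular identifiers, so depth sets only counting error.

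Named genes were the 10 higher and 10 lower of smallest p with a mean log2 CPM of at least 0, the 6 and 6 of widest gap between classes with at least 1, the 2 of smallest p in each of 33 lists (536 of 572 genes found), and a panel, of which PTX3, INHBA, AMH and FOXL2 were not among the tested genes. The values of 1 of the lower genes by gap are not reported here, though counts over these genes include it. The libraries and lists were chosen with earlier results of these data known. Library measures were compared by exact permutation of 252 arrangements (smallest possible p 0.00794).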

Additional observations from a re-analysis of the deposited data

Results flagged for a closer look

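Within each class of 5 libraries, a value was listed where its gap to the nearest of the others, divided by the range, passed Dixon's 95% critical value of 0.71 for 5. For single genes this ratio was taken on log2(CPM + 1), while the levels printed below are CPM. Library measures and list scores were examined as printed. Of 280 groups examined 32 were listed, and chance lists about 1 in 20. Most were in Degenerating WSD+C 1. Its list scores, means of log2(CPM + 1) over tested members, were 4.89 for cholesterol synthesis and uptake, 4.17 for the ovulatory response, 6.59 for heat shock, 5.17 for hypoxia and glycolysis, 5.70 for oxidative phosphorylation, 4.796 for fatty acid oxidation and lipid storage and 6.79 for granulosa markers, all below the other 4 degenerating libraries. Its scores of 9.10 for erythroid and 4.42 for oocyte markers were above them.

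Single genes stood out in the same library, below the other 4 at 25.8 CPM for FADS2, 48.5 CPM for CYP51A1, 167 CPM for HSPA9, 35.9 CPM for NDUFA9, 27.9 CPM for NDUFB8, 211 CPM for STAR, 33.6 CPM for PTGS2 and 217 CPM for INHA. It was above them at 76.1 CPM for FSHR, 17.3 CPM for HEMGN, 122 CPM for SLC4A1, 12.2 CPM for DES and 20.4 CPM for GDF9, genes of the receptor for follicle-stimulating hormone, red blood cells, muscle and the oocyte.

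With MI oocytes, the share of reads in genes was lowest in MI WSD+C 1 at 64.5%. In that library FAM124A was low at 49.1 CPM and TIMP2 high at 57.4 CPM. MEFV was high in MI WSD+C 2 at 11.2 CPM. In MI WSD+T 1 the platelet marker score was high at 2.76, with MMP9 at 0.987 CPM, CXCR1 at 1.22 CPM and PPBP at 1.39 CPM. In MI WSD+T 2 the cell engulfment score was low at 7.08 and DCAF13 high at 26.6 CPM.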

How the results depend on the processing

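No paired analysis was possible because each library carries its own animal number, so that no animal was in both classes. For degenerating against MI, edgeR called 0 genes in every setting run, among them other scaling, filters, models and each fit without 1 library, and only DESeq2 gave calls (1291, and 291 without Degenerating WSD+C 1 and WSD+T 3). Genes at an unadjusted p under 0.05 were 1563 without both of these and 390 with the leukocyte term. Within WSD+C the calls were 782 by DESeq2 and 0 to 3251 without 1 library, within WSD+T 98 by DESeq2, 1 by limma and 0 to 9 without 1 library, and for the interaction 4 by DESeq2 and 0 to 545 without 1 library. For named genes, 2099 of 2144 pairs of 103 genes and 21 settings kept their direction. The other 45, in 22 genes, changed sign with neither value past the threshold, 20 of them with the leukocyte term and 5 without both libraries. The cause of these shifts was not tested. The DESeq2 fit without the same 2 libraries, the fit without both deeper ones, the values of list members without overlap and the counts at an unadjusted p were chosen after seeing the data.

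Library measures lost their calls without both libraries, at -2.25 percentage points for the share of reads in genes, 169.5 genes at 1 CPM or more and 3.61 points for the 50 top genes. Without 1 library they ranged from -4.90 to -2.36, from 293.7 to 833 and from 3.13 to 6.49, with calls lost in 6 of the 10 fits for each (without Degenerating WSD+C 1 and without each MI library). Degenerating libraries correlated with each other at 0.807 to 0.9751 and MI libraries at 0.972 to 0.991. The part of this spread and of counting error in the calls was not tested.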
